A study of Mus musculus with 9 samples.

Results

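Interferon-stimulated genes of mouse bone marrow neutrophils were followed across 9 libraries, 5 from Rragc+/+ and 4 from RragcS74N/+ mice. The genes were taken by symbol from a fixed list of 59 type I and type II interferon targets, without a filter on expression. The Schlafen and MHC class I genes were left out of that list. Of the 59 genes, 45 were listed among the 7197 genes of the normalized count table, and all 45 also passed the mean of 10 normalized counts that defined the 6673 genes tested. The other 14 (Ifit2, Oas1a, Mx1, Mx2, Bst2, Irf8, Ifi203, Ifi207, Ifi209, Ifi211, Gbp3, Iigp1, Ifi44 and Phf11d) were not listed and have no value here.

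All mice were 2 months old, and no treatment or infection is named for either genotype. RragcS74N/+ mice carry 1 endogenous Rragc allele with the S74N substitution in RagC, a Rag GTPase that brings mTORC1 to the lysosome when nutrients are sufficient. The allele is present in every tissue, so the sorted cells developed in mutant animals. Neutrophils were sorted as CD45+ CD11b+ Ly6G+ cells, and sequencing reads were taken from the 3′ ends of transcripts. Every value below is a normalized count, that is, the reads of a gene divided by 1 size factor per library, and values are listed in the order of replicates 1 to 5 for Rragc+/+ and 1 to 4 for RragcS74N/+. The listed genes held 1214295 to 1973957 reads per library. Rragc+/+ replicate 2 had the fewest reads and stood apart from the rest, with a mean Spearman correlation to the other libraries of 0.891 against 0.929 to 0.951 for the others. Rragc itself had 87.6, 72.4, 62.8, 61.9 and 70.2 in Rragc+/+ and 71.6, 51.8, 67.8 and 72.1 in RragcS74N/+. The genotypes overlapped for this edited gene, with a log2 change of -0.11 (SE 0.18), and the substitution cannot be seen in counts. All 8 neutrophil markers were listed, whereas none of 4 primary granule genes and none of 4 platelet genes were. All 7 cell cycle genes and 6 of 7 erythroid genes were listed as well. How the listed genes were chosen is not known, so a gene that is not listed cannot be called absent from the cells. By the study's text the neutrophils came from equal numbers of young mice of both genotypes, whereas fewer RragcS74N/+ than Rragc+/+ libraries were analysed here. The labels do not tie libraries to mice, and p-values measure the spread between these libraries.

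Type I interferons signal through IFNAR1 and IFNAR2 and the kinases JAK1 and TYK2, and a factor complex that contains IRF9 binds the interferon-stimulated response element in target promoters. Targets of interferon-γ often carry a palindromic site, the gamma-activated sequence. The induced proteins bind viral RNA, conjugate ISG15, degrade or edit nucleic acids and alter membranes, and many of them are made at a basal level in unstimulated blood cells, including neutrophils.

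Promoter letters are given first for some of the genes that hold the core letters of the response element upstream of their start. These genes were picked for a match, so they do not show how common a match is. Genes without a match in their windows, such as Xaf1, Ube2l6, Irf1, Irf9 and Oasl2, are not printed. Each stretch is RefSeq sequence on GRCm38.p6, whereas the counts were made on GRCm39, and runs 5′ to 3′ on the strand of the gene. Capitals mark the match to GAAANNGAAA on either strand (a run of capitals can hold several overlapping matches). Isg15, Ifit1, Ifit3, Ifit3b and Gbp2 had their highest value in RragcS74N/+ replicate 4. Oas3, Rsad2, Ifitm2 and Igtp had theirs in Rragc+/+ replicate 2. Gbp7 was highest in RragcS74N/+ replicate 1, and Irgm1, which followed few of the other genes, in Rragc+/+ replicate 1.
Isg15: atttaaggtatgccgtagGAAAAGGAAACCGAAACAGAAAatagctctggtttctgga
Ifit1: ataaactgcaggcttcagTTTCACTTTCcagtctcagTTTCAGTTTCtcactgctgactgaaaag
Ifit3: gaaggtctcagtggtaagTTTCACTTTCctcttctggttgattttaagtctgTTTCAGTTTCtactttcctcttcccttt
Ifit3b: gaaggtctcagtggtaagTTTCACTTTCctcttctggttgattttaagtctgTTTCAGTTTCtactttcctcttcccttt
Gbp2: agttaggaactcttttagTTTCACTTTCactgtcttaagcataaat
Oas3: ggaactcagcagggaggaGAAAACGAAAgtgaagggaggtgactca
Rsad2: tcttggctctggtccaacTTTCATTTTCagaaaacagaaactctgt
Ifitm2: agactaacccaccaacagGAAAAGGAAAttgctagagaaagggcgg
Igtp: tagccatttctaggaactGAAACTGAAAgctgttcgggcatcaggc
Gbp7: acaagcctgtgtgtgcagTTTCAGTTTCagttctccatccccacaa
Irgm1: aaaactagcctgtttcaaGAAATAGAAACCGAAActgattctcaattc

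On the minus strand lie the stretches of Isg15 (chr4:156200857-156200914), Oas3 (chr5:120777707-120777752), Rsad2 (chr12:26456545-26456590), Ifitm2 (chr7:140955980-140956025) and Irgm1 (chr11:48871421-48871468). On the plus strand lie those of Ifit1 (chr19:34640767-34640831), Ifit3 (chr19:34583355-34583434), Ifit3b (chr19:34607751-34607830), Gbp2 (chr3:142620586-142620631), Igtp (chr11:58199504-58199549) and Gbp7 (chr3:142530265-142530310). All of them lie upstream of the annotated start, within 300-base windows that reach from 250 bases before it to 50 after it. The matching letters were found 3 times in the Isg15 window and 2 times each in those of Ifit1, Ifit3, Ifit3b and Irgm1. The stretches of Ifit3 and Ifit3b, neighbouring copies in the Ifit cluster of chromosome 19, were identical. Their whole windows matched at 201 of 268 aligned bases (75%) once shifted by 32 bases.

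Promoter windows were found for 35 of the 45 genes, 44 windows in all since some genes have several starts. GAAANNGAAA, searched on both strands, was present in 19 of these 44 windows (43.2%), against 1131 of 32851 windows of the same length in the whole table (3.44%). TTCNNNGAA, the core of the gamma-activated sequence and its own reverse complement, was present in 9 of 44 windows (20.5%), against 8.3% of all windows, and its match overlapped one to GAAANNGAAA in Ifitm3 alone. Per gene, GAAANNGAAA was present for 17 of 35 (48.6%). It was present for 6 of 9 genes highest in RragcS74N/+ replicate 4, for 7 of 14 highest in Rragc+/+ replicate 2 and for 3 of 7 highest in RragcS74N/+ replicate 1. These matches describe letters in a window and not binding.

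The first question was whether neutrophils of RragcS74N/+ mice differed from those of Rragc+/+ mice in these genes. None of the 45 passed an adjusted p of 0.05 by limma, edgeR or DESeq2, and 0.0% of all genes tested did so by each tool. The limma adjusted p of the 45 genes lay between 0.713 and 0.996. At an unadjusted limma p under 0.05 there were 2 of 45, against 5.81% of all genes tested. Both were higher in RragcS74N/+ (2.01% of all genes tested) and none was lower (3.81%). They were Xaf1 (unadjusted p = 0.00835) and Ifi204 (unadjusted p = 0.0392). edgeR and DESeq2 each gave 5 at an unadjusted p under 0.05, against 6.89% and 6.7% of all genes tested. By both tools Xaf1, Ifi204 and Ifit1 were the 3 higher ones (1.8% and 1.83% of all genes tested), and Ifitm2 and Ly6e the 2 lower ones (5.1% and 4.87%). In direction, 25 of the 45 were higher in RragcS74N/+ and 20 lower, and 53.4% of all genes tested were higher. The median log2 change was 0.04 over the 45 genes and 0.02 over all genes tested, and the median absolute log2 change was 0.19 against 0.21. The spread within a genotype was close to that of all genes, with a median SD on the log2 scale of 0.361 in Rragc+/+ (0.361 for all genes) and 0.297 in RragcS74N/+ (0.296 for all genes).

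**Figure D1:**
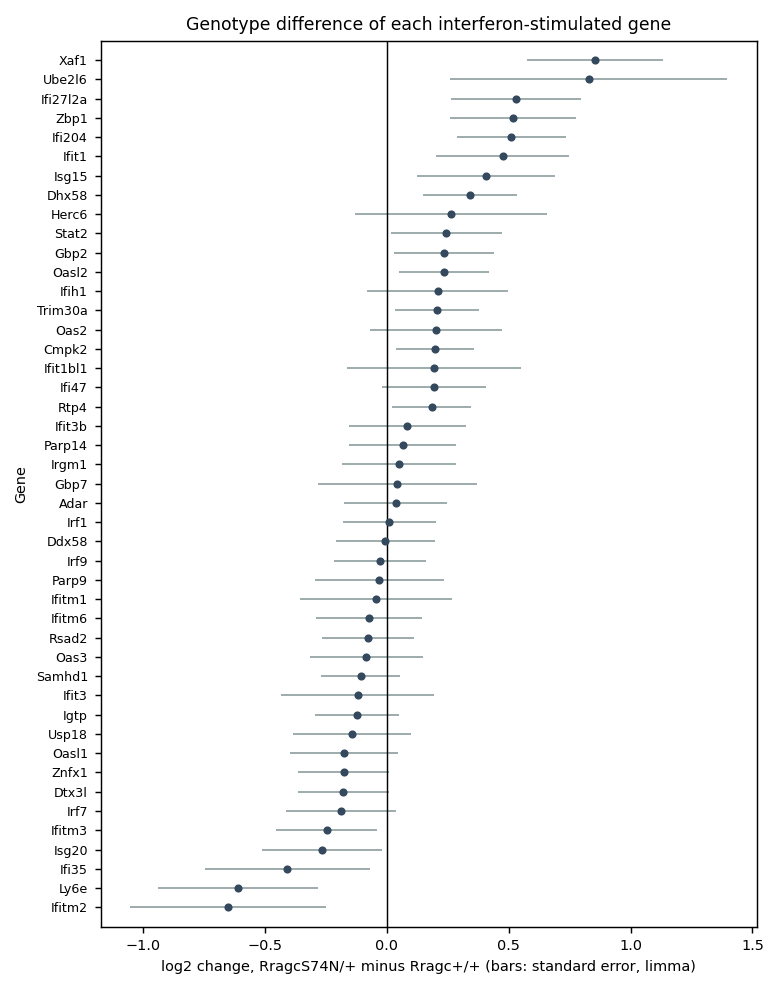
Log2 change of each of the 45 interferon-stimulated genes (points, RragcS74N/+ minus Rragc+/+, on log2 of the normalized count + 1) with its limma standard error (bars). The changes run from -0.65 for Ifitm2 to 0.85 for Xaf1, with 25 genes above 0 and 20 below, and none has an adjusted p under 0.05.

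Xaf1, an antagonist of the caspase inhibitor XIAP, was the one gene of the 45 whose genotypes did not overlap, and such separation was found in 1.69% of all genes tested (0.674% in the same direction). It had 10.5, 11.7, 15.0, 8.84 and 11.0 in Rragc+/+ and 16.6, 19.3, 18.1 and 34.5 in RragcS74N/+. Every RragcS74N/+ library was above every Rragc+/+ library, and replicate 4 was the highest. The log2 change was 0.85 (SE 0.28), and 0.63 without RragcS74N/+ replicate 4 (unadjusted p = 0.045). Ifi204, a cytosolic DNA sensor and the only listed gene of the 5 named from the Ifi200 family, had 147, 132, 184, 128 and 203 in Rragc+/+ and 264, 158, 188 and 315 in RragcS74N/+. Its groups overlapped, RragcS74N/+ replicates 1 and 4 lying above all others. The log2 change of 0.51 (SE 0.22) became 0.35 without RragcS74N/+ replicate 4 (unadjusted p = 0.15).

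Zbp1, a sensor of Z-form nucleic acids that can trigger necroptosis, had 87.6, 143, 108, 61.1 and 107 in Rragc+/+ and 144, 130.1, 98.7 and 209 in RragcS74N/+. RragcS74N/+ replicate 4 was highest and Rragc+/+ replicate 4 lowest, and the log2 change was 0.52 (SE 0.26). It was 0.33 without RragcS74N/+ replicate 4 and 0.65 without Rragc+/+ replicate 2. Ifi27l2a, a small interferon-induced membrane protein, had 723, 1736, 1197, 1069 and 1270.3 in Rragc+/+ and 1363, 1446, 1384 and 2829 in RragcS74N/+. RragcS74N/+ replicate 4 was the highest by far. The other RragcS74N/+ libraries lay below Rragc+/+ replicate 2 and above the rest of the Rragc+/+ libraries. The log2 change was 0.53 (SE 0.26). It was 0.28 without RragcS74N/+ replicate 4 and 0.68 without Rragc+/+ replicate 2. Ube2l6, the conjugating enzyme for ISG15, had 8.56, 3.51, 2.81, 9.65 and 16.0 in Rragc+/+ and 3.32, 12.2, 27.9 and 21.9 in RragcS74N/+. It was read at few counts, the genotypes overlapped, and its log2 change of 0.83 (SE 0.57) carried the largest standard error of the 45 genes.

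Ifitm2, which restricts virus entry at membranes, had the lowest log2 change, with values of 564, 2247, 974, 566 and 352 in Rragc+/+ and 629, 411, 476 and 436 in RragcS74N/+. Rragc+/+ replicate 2 was above all other libraries, and the rest of the Rragc+/+ libraries spanned the RragcS74N/+ values. The log2 change was -0.65 (SE 0.40), and -0.26 without Rragc+/+ replicate 2. Ly6e, a GPI-anchored surface protein, had 224, 637, 276, 204 and 151 in Rragc+/+ and 223, 149, 142 and 181 in RragcS74N/+. Again Rragc+/+ replicate 2 stood alone at the top, and the log2 change of -0.61 (SE 0.33) became -0.29 without it. Ifi35, a partner of NMI, had 19.8, 47.9, 23.4, 26.5 and 12.0 in Rragc+/+ and 13.3, 22.4, 14.3 and 21.9 in RragcS74N/+, and its log2 change was -0.41 (SE 0.34). Isg20, an exonuclease that degrades single-stranded RNA, had 167, 227, 126, 97.3 and 120.3 in Rragc+/+ and 117, 86.4, 121 and 156 in RragcS74N/+, with a log2 change of -0.26 (SE 0.25). Without Rragc+/+ replicate 2 these were -0.16 for Ifi35 and -0.09 for Isg20. The 4 genes with the lowest log2 change therefore shared their highest library, which is a wild-type one.

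**Figure D2:**
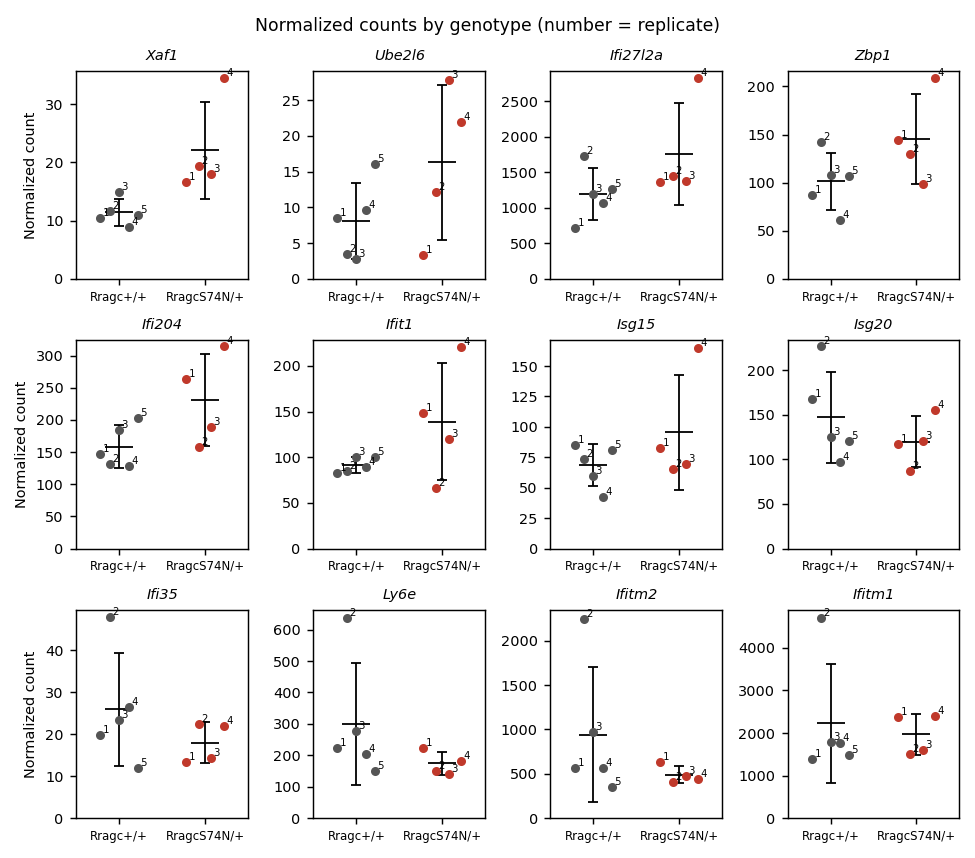
Normalized counts of 12 of the genes in each library, by genotype (points, numbered by replicate; horizontal mark and bars, mean ± SD, n = 5 and n = 4; each axis starts at 0). Xaf1 is the gene without overlap, RragcS74N/+ replicate 4 is the highest point for Ifi27l2a, Zbp1, Ifi204, Ifit1 and Isg15, and Rragc+/+ replicate 2 is the highest for Ifitm1, Ifitm2, Ly6e, Ifi35 and Isg20.

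The IFIT proteins bind viral RNA that lacks host cap methylation and block its translation. Of 5 named Ifit genes 4 were listed, and none passed the test. Ifit1 had 82.3, 85.3, 100.3, 89.2 and 100.3 in Rragc+/+ and 149, 66.1, 121 and 221 in RragcS74N/+. The Rragc+/+ libraries lay close together (91.5 ± 8.39, SD, n = 5), whereas the RragcS74N/+ libraries reached both below and above them (139 ± 64.3, SD, n = 4). Ifit3 had 75.7, 129.7, 136, 146 and 160.4 in Rragc+/+ and 131, 62.0, 101 and 217 in RragcS74N/+, again with the lowest and the highest library both in RragcS74N/+ (replicates 2 and 4). The log2 changes were 0.48 (SE 0.27) for Ifit1 and -0.12 (SE 0.31) for Ifit3. Ifit1bl1 (13.2 to 66.9 over the 9 libraries) and Ifit3b (52.7 to 113) were highest in RragcS74N/+ replicate 4 as well, the library shared by all 4 genes, each of which has GAAANNGAAA in its promoter window. Over the 6 pairs of Ifit genes the median Pearson r across libraries was 0.74, with a range of 0.59 to 0.82. The last 500 bases of the Ifit3 and Ifit3b transcripts shared no 50-base word.

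ISG15 is a ubiquitin-like protein that is attached to other proteins by UBE2L6 and, in mice, HERC6, and is removed by USP18, which also damps the type I receptor. Isg15, whose promoter stretch holds 3 matches, had 85.0, 73.6, 60.0, 42.6 and 81.2 in Rragc+/+ and 82.2, 65.1, 69.3 and 165 in RragcS74N/+. RragcS74N/+ replicate 4 was far above the next library, the others overlapped, and the log2 change of 0.41 (SE 0.28) became 0.11 without that library. Usp18 (18.4 to 34.1) and Herc6 (6.78 to 30.5) each overlapped between genotypes, and the median r over the 6 pairs of this group was 0.18.

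The OAS enzymes make the oligoadenylates that activate RNase L. Oas3 had 148, 216, 132, 127 and 100.3 in Rragc+/+ and 190.3, 119, 124 and 109 in RragcS74N/+, highest in Rragc+/+ replicate 2 and next in RragcS74N/+ replicate 1. Oasl2, an OAS-like protein, had 135, 186, 166, 148 and 125 in Rragc+/+ and 232, 158, 149.9 and 179.8 in RragcS74N/+, where the order of these libraries was turned round. Oasl1, which in mice represses translation of Irf7, had 21.1, 24.5, 21.6, 31.4 and 21.1 in Rragc+/+ and 20.6, 19.3, 18.1 and 26.1 in RragcS74N/+ and did not follow its neighbour (r = 0.05 with Oasl2). Oas2 ranged from 23.1 to 57.7 with its maximum in RragcS74N/+ replicate 1. The genotypes overlapped for all of these, with log2 changes between -0.18 for Oasl1 and 0.23 for Oasl2.

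Other antiviral effectors act on nucleotides and nucleic acids. Rsad2, which encodes viperin and makes a chain-terminating nucleotide, had 476, 806, 679, 591 and 536 in Rragc+/+ and 731, 472, 578 and 549.7 in RragcS74N/+. Its neighbour Cmpk2, a nucleotide kinase that supplies viperin's substrate pathway, had 190.3, 181, 174, 239 and 219 in Rragc+/+ and 255, 204, 227 and 231 in RragcS74N/+. Rsad2 was highest in Rragc+/+ replicate 2, where Cmpk2 was among its lowest. The r of these adjacent genes was -0.08, and its sign turned with the scaling (0.24 with columns rescaled to 1 total). Samhd1, which breaks down deoxynucleotides, had 1214, 1189.5, 1157, 1104 and 890.3 in Rragc+/+ and 1245, 1011, 969 and 906 in RragcS74N/+, the lowest ratio of highest to lowest library (1.40) of the 45 genes. Adar, an RNA editing enzyme, ranged from 32.5 to 58.5, and Znfx1, an RNA helicase, from 36.5 to 54.9. Log2 changes in this group lay between -0.26 for Isg20 and 0.20 for Cmpk2.

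The 4 Ifitm genes lie in 1 cluster on chromosome 7 and encode membrane proteins that hinder virus entry. Ifitm1 had 1388, 4706, 1787, 1777 and 1475 in Rragc+/+ and 2382, 1499, 1603 and 2398 in RragcS74N/+. Ifitm3 had 2839, 4542, 3173, 2973 and 2202 in Rragc+/+ and 2003, 2619, 2867 and 2943 in RragcS74N/+. Ifitm6 had 4659.5, 8912, 5753, 5793 and 5987 in Rragc+/+ and 4551, 6746, 4759 and 7629 in RragcS74N/+. Together with Ifitm2, all 4 were highest in Rragc+/+ replicate 2, and all 4 had log2 changes below 0, from -0.65 to -0.04, none past the test. Without Rragc+/+ replicate 2, Ifitm1 was at 0.27 and Ifitm6 at 0.07, so the shared direction rested on that library. The median r over the 6 pairs was 0.64. A read from a shared end cannot be assigned with certainty to 1 gene of this family. Of the 50-base words in the last 500 bases, 3.33% of those of Ifitm1 and 4.43% of those of Ifitm2 also occurred in Ifitm3.

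**Figure D3:**
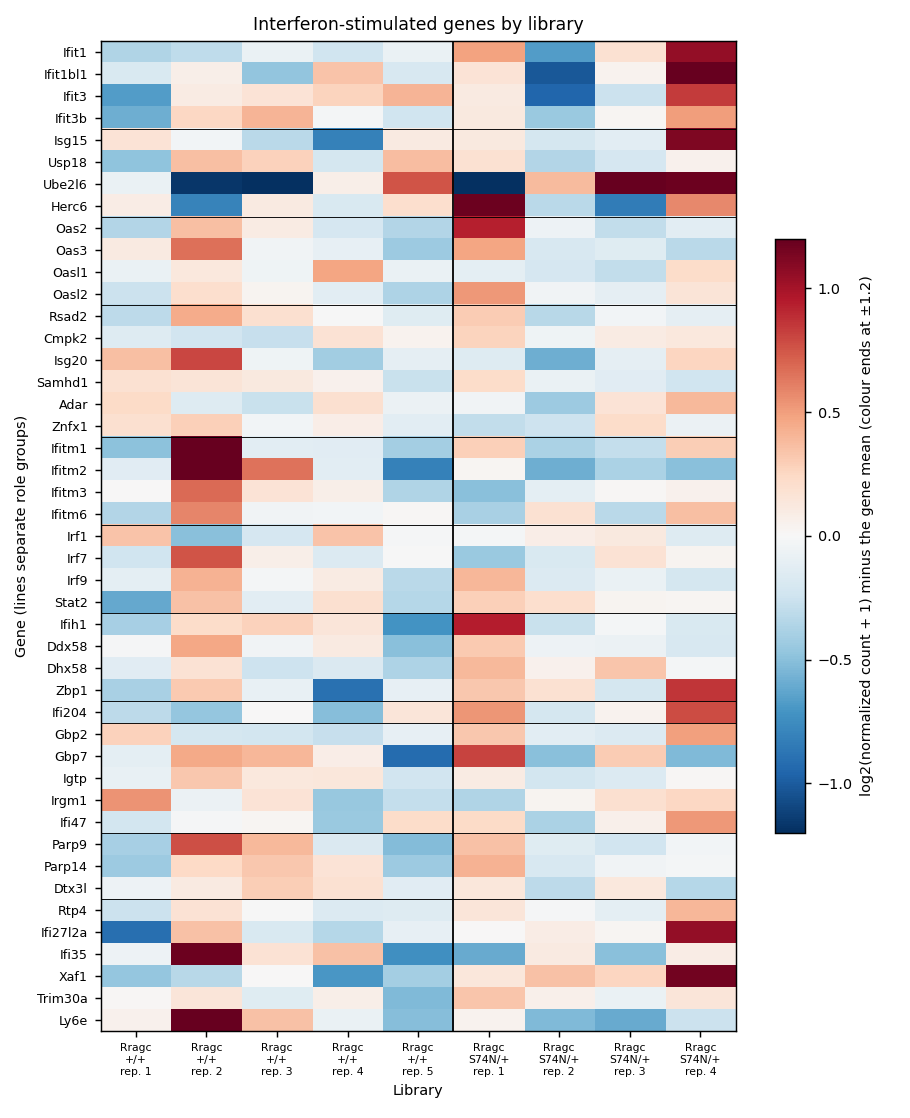
Log2 of the normalized count + 1 of each of the 45 genes in each library, minus the gene's mean over the 9 libraries (colour, red above and blue below; colours end at ±1.2), in the order of role groups. The Ifitm block is red in Rragc+/+ replicate 2, and the Ifit block, Isg15, Zbp1, Ifi27l2a and Xaf1 are red in RragcS74N/+ replicate 4.

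Transcription factors of the response had log2 changes between -0.19 and 0.24, none past the test. Irf1, induced mainly by interferon-γ, had 441, 245, 303, 439.7 and 345 in Rragc+/+ and 342, 368, 377 and 312 in RragcS74N/+, lowest in Rragc+/+ replicate 2. Irf7, the amplifier of type I interferon production, had 60.6, 122, 75.0, 63.5 and 71.2 in Rragc+/+ and 52.4, 63.0, 80.6 and 73.2 in RragcS74N/+, highest in that same library. Irf9, a DNA-binding factor of the type I response, had 357, 514, 381, 414 and 309 in Rragc+/+ and 511, 344, 365 and 332 in RragcS74N/+, with Rragc+/+ replicate 2 and RragcS74N/+ replicate 1 at the top. Stat2, its partner in type I signalling, ranged from 19.8 to 39.7.

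Sensors of viral RNA detect its ends or its length. Ddx58, which encodes RIG-I, had 111, 155, 109.7, 121 and 79.2 in Rragc+/+ and 141, 108, 107 and 98.2 in RragcS74N/+, in the same order at the top as Irf9. Ifih1, which encodes MDA5, ranged from 22.1 to 71.6, and Dhx58, which encodes LGP2, from 30.1 to 51.7. Log2 changes were -0.01 (SE 0.20) for Ddx58, 0.21 (SE 0.29) for Ifih1 and 0.34 (SE 0.19) for Dhx58, so the RNA sensors did not pass the test in either direction.

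Interferon-inducible GTPases attack the vacuoles of intracellular pathogens. Gbp2, a guanylate-binding protein, had 69.2, 49.1, 48.7, 46.6 and 53.1 in Rragc+/+ and 71.6, 51.8, 50.5 and 80.5 in RragcS74N/+. Igtp, of the immunity-related family, had 89.6, 119, 104, 105 and 81.2 in Rragc+/+ and 102, 81.3, 85.1 and 96.1 in RragcS74N/+. Irgm1, a regulator of that family, had 54.0, 35.1, 41.2, 26.5 and 30.1 in Rragc+/+ and 28.5, 37.6, 42.2 and 43.9 in RragcS74N/+. The 3 genes each peaked in a different library, RragcS74N/+ replicate 4, Rragc+/+ replicate 2 and Rragc+/+ replicate 1. Gbp7 ranged from 33.1 to 113 and Ifi47 from 46.6 to 92.0. The median r over the 10 pairs of this group was -0.02, the second lowest of the role groups after the transcription factors at -0.07.

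PARP9 and DTX3L act as a complex in DNA repair and antiviral signalling. Parp9 had 50.1, 115, 87.2, 58.7 and 46.1 in Rragc+/+ and 84.9, 60.0, 56.5 and 64.8 in RragcS74N/+. Dtx3l had 56.0, 63.1, 72.2, 66.7 and 53.1 in Rragc+/+ and 64.3, 46.8, 64.0 and 46.0 in RragcS74N/+. Their r was 0.44, and Parp14, a related ADP-ribosyltransferase, ranged from 53.1 to 96.8. Of the remaining induced genes, Rtp4, a chaperone that also restricts some viruses, had 433, 582, 515, 463 and 464 in Rragc+/+ and 571, 513, 476 and 683 in RragcS74N/+. Trim30a, a TRIM protein that dampens Toll-like receptor signalling, had 586, 640.3, 524, 608 and 401 in Rragc+/+ and 732, 606, 548 and 643 in RragcS74N/+. Rtp4 was highest in RragcS74N/+ replicate 4 and Trim30a in RragcS74N/+ replicate 1, and the genotypes overlapped for both.

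The genes were then compared across libraries without regard to genotype. Over the 990 pairs of the 45 genes the median Pearson r on the log2 scale was 0.21, against -0.0026 over 22261128 pairs of all genes tested. A positive r over 0.5 was found in 25.4% of the pairs (15.6% of all pairs), and a negative r in 30.1% (50.2% of all pairs). The points share 9 libraries and their depth, so these are descriptions. The median was 0.24 after each genotype was centred on its own mean, 0.27 after the first principal component of all genes was removed, and 0.17 without Rragc+/+ replicate 2.

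The genes did not vary as 1 block. Rragc+/+ replicate 2 held the highest value of 16 of the 45 genes (35.6%, against 25.9% of all genes tested), RragcS74N/+ replicate 4 that of 13 (28.9% against 15.0%) and RragcS74N/+ replicate 1 that of 10 (22.2% against 17.2%). RragcS74N/+ replicate 2 held the highest value of none (0 of 45, 5.08% of all genes), and Rragc+/+ replicate 5 held the lowest of 14 (31.1% against 12.1%). In RragcS74N/+ replicate 1 34 genes lay above their own mean, in Rragc+/+ replicate 2 33 and in RragcS74N/+ replicate 4 29, whereas in Rragc+/+ replicate 5 only 9 did. High libraries were thus found in both genotypes. Rragc+/+ replicate 2 also had the lowest correlation with the others over all genes, and its sum over the 4 listed of 9 monocyte markers was the highest at 462 (203 to 318 in the other Rragc+/+ libraries and 221 to 255 in RragcS74N/+). Csf1r gave 339 of that sum and was the only one of them at its highest there. Ly6c1 (12.9), Cd14 (4.67) and Ctss (105) lay within their ranges over the other libraries. Rragc+/+ replicate 5 had the highest sums of the 7 cell cycle genes (764) and of the 6 listed erythroid genes (5585). Its sum over 8 mature neutrophil markers (45045) lay within the range of the other libraries, although Cxcr2 was lowest there (895). The part of monocytes, erythroid cells or dividing cells in the pattern was not tested. Fewer cells of a type and less RNA per cell cannot be told apart in these bulk samples. Each library's trend with 3′ GC content was also removed, an alternative chosen after seeing the data. Rragc+/+ replicate 2, RragcS74N/+ replicate 4 and RragcS74N/+ replicate 1 then held the highest value of 17, 12 and 9 genes.

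**Figure D4:**
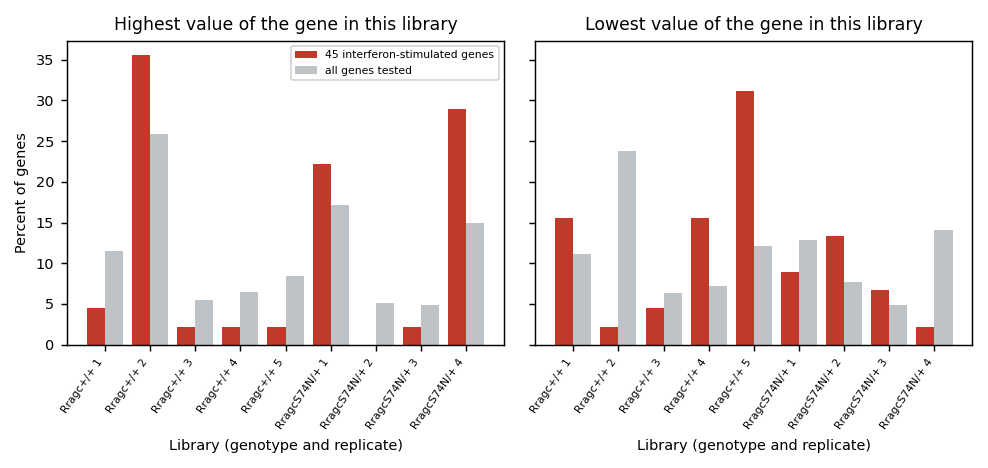
Percent of genes that had their highest value (left) or lowest value (right) in each library, for the 45 interferon-stimulated genes (red) and all genes tested (grey). The highest values lie mainly in Rragc+/+ replicate 2 (35.6%), RragcS74N/+ replicate 4 (28.9%) and RragcS74N/+ replicate 1 (22.2%), and the lowest most often in Rragc+/+ replicate 5 (31.1%).

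Most role groups were split between libraries, whereas the listed Ifit genes and the Ifitm genes each had their highest values in 1 library. The genes highest in RragcS74N/+ replicate 4 were the 4 Ifit genes, Isg15, Zbp1, Ifi204, Ifi27l2a, Xaf1, Rtp4, Gbp2, Ifi47 and Adar. In Rragc+/+ replicate 2 they were the 4 Ifitm genes with Ly6e, Ifi35, Oas3, Rsad2, Isg20, Znfx1, Irf7, Irf9, Stat2, Ddx58, Igtp and Parp9. In RragcS74N/+ replicate 1 they were Oas2, Oasl2, Ifih1, Dhx58, Parp14, Gbp7, Trim30a, Herc6, Cmpk2 and Samhd1. The first principal component of the 45 genes, 35.0% of their variance, set Rragc+/+ replicate 2 and RragcS74N/+ replicate 1 (scores 0.67 and 0.35) against Rragc+/+ replicate 5 (-0.45). The second, 22.1%, set RragcS74N/+ replicate 4 (0.79) apart.

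The highest pairwise correlations joined genes with the same highest library and also genes with different ones. Ifitm2 and Ly6e had an r of 0.97, Irf9 and Ddx58 0.95, Ifih1 and Parp14 0.93, Oas2 and Oasl2 0.92, Ifitm3 and Ifi35 0.90, and Rtp4 and Ifi27l2a 0.90. Oas3 had 0.93 with both Irf9 and Ddx58. Irf9 and Gbp7, highest in different libraries, had 0.85, and Rsad2 and Parp14, also highest in different ones, 0.84. The 25 highest and 15 lowest pairs were picked by their r in these same libraries, which favours an extreme r with 1 library left out. The values without a library are therefore descriptions and no test. Of the 25 highest pairs 22 kept an r over 0.7 whichever library was left out. That of Ifitm2 and Ly6e was 0.89 without Rragc+/+ replicate 2, and that of Rtp4 and Ifi27l2a 0.78 without RragcS74N/+ replicate 4. Of the 15 lowest pairs 14 held Irf1 or Ube2l6. Ube2l6 and Samhd1 had -0.85 and Usp18 and Irf1 -0.79, and both stayed below -0.7 whichever library was left out, as far as both genes were then tested. Ifitm1 and Irf1 had -0.80, and -0.52 without Rragc+/+ replicate 2. Irf1 had the lowest mean r with the other 44 genes (-0.34), followed by Ube2l6 (-0.22), and Ifitm1 had the highest (0.40).

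**Figure D5:**
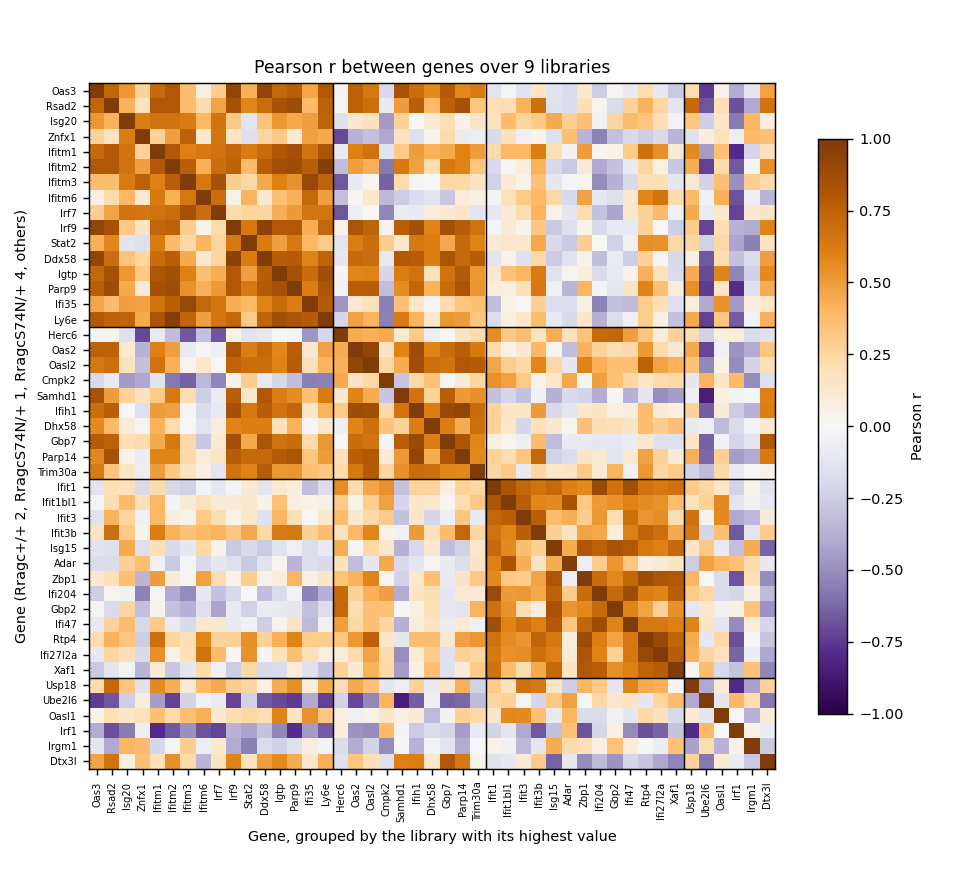
Pearson r over the 9 libraries between each pair of the 45 genes (colour from -1 to 1), with genes grouped by the library of their highest value (lines), a grouping that itself favours a positive r within a group. Genes that peak in Rragc+/+ replicate 2 and in RragcS74N/+ replicate 1 are mostly positive with each other. Those that peak in RragcS74N/+ replicate 4 are also mostly positive with each other. Some of these follow genes of other groups as well, such as Ifit3b with Parp14 (0.72) and Rtp4 with Oasl2 (0.74). Irf1 and Ube2l6 are mostly negative.

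A set of 10 pairs, chosen with earlier results of these data known, was tested by an exact permutation test over all 362880 pairings of the 9 libraries (two-sided). None passed an adjusted p of 0.05. Unadjusted p lay under 0.05 for 3. Ifit1 and Ifit3 had r = 0.72 (exact permutation p = 0.0295, adjusted p = 0.104) and rho = 0.63 (exact permutation p = 0.076, adjusted p = 0.539). Ifitm2 and Ifitm3 had r = 0.77 (exact permutation p = 0.0239, adjusted p = 0.104) and rho = 0.58 (exact permutation p = 0.108, adjusted p = 0.539). Irf1 and Irf7 had r = -0.72 (exact permutation p = 0.0313, adjusted p = 0.104) and rho = -0.52 (exact permutation p = 0.162, adjusted p = 0.539). Without the 2 libraries farthest from the median of the first gene, r was 0.17, 0.016 and -0.22. This omission narrows the range of the first gene, which can itself weaken r, so it cannot tell how far the relations rest on those libraries. With 1 library left out, r was 0.53 to 0.78, 0.35 to 0.94 and -0.84 to -0.34. The other 7 pairs had r between -0.24 (Igtp and Irgm1) and 0.44 (Parp9 and Dtx3l).

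Genomic neighbours differed in how far they varied together. With no annotated gene between them, Oas2 and Oas3 had r = 0.75, Ifitm2 and Ifitm1 0.80, and Ifit3 and Ifit1bl1 0.77. Ifitm3 and Ifitm6 had 0.64, Ifit1bl1 and Ifit3b 0.59, and Dtx3l and Parp9 0.44, but Rsad2 and Cmpk2 had -0.08.

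Other genes of the pathway were taken from lists of 91 genes, of which 52 were listed and 51 tested. None passed an adjusted p of 0.05, and 3 had an unadjusted limma p under 0.05, against 5.81% of all genes tested. All 3 were higher in RragcS74N/+ (2.01% of all genes tested) and none was lower (3.81%). None of the 10 ligands was listed, whereas all 9 receptors and kinases were. Ifnlr1, the interferon-λ receptor chain, had 117, 21.0, 52.5, 43.4 and 78.2 in Rragc+/+ and 115, 88.4, 87.4 and 101 in RragcS74N/+. Its log2 change was 0.85 (SE 0.37) and the genotypes overlapped, Rragc+/+ replicate 1 being the highest library. Gbp9, a guanylate-binding protein, had 11.2, 16.4, 12.2, 13.7 and 18.0 in Rragc+/+ and 18.6, 24.4, 23.3 and 19.9 in RragcS74N/+, with a log2 change of 0.57 (SE 0.24). Its genotypes did not overlap, as was found in 1.69% of all genes tested (0.674% in the same direction). Irgm2, of the immunity-related GTPases, had 48.1, 18.7, 17.8, 24.1 and 30.1 in Rragc+/+ and 49.1, 38.6, 37.7 and 51.2 in RragcS74N/+. Its log2 change was 0.73 (SE 0.28). For Ifnlr1, Gbp9 and Irgm2 the unadjusted p was 0.0936, 0.0301 and 0.0433 by edgeR and 0.0815, 0.0516 and 0.042 by DESeq2. Of the sensing arm 6 of 12 and of the inhibitors 7 of 7 were listed, and 24 of 47 further induced genes, with no gene lower at an unadjusted p under 0.05 in any list.

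Some markers of other cells had an unadjusted limma p under 0.05, and none passed an adjusted p of 0.05. Of 7 erythroid genes 6 were listed and 5 had an unadjusted limma p under 0.05, all lower in RragcS74N/+ (3.81% of all genes tested). Each of these 5 was lowest in RragcS74N/+ replicate 2, so they are not independent observations. Car2, the other listed one, had a log2 change of 0.58 (SE 0.76). The summed normalized count of the 6 was 1090 to 5585 in Rragc+/+ and 378 to 2147 in RragcS74N/+. Of 6 eosinophil and basophil genes 3 were listed, and their sum was 46.9 to 121 in Rragc+/+ and 51.7 to 206 in RragcS74N/+. It reached 206 in RragcS74N/+ replicate 4 and 203 in RragcS74N/+ replicate 2. In these 2 libraries Prg2 had 159 and 140 and Epx 28.2 and 31.5. Siglecf, in contrast, had 18.8, its lowest value, in RragcS74N/+ replicate 4 and 31.5 in RragcS74N/+ replicate 2. Of 8 plasmacytoid dendritic cell markers 3 were listed, with sums of 44.4 to 60.3 and 40.8 to 67.0, and Siglech and Ccr9 were not listed. The part of these cells in the genotype values was not tested.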

How the data were processed

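RNA of neutrophils sorted on 2 instruments (the labels do not say which library came from which) was made into stranded 3′ libraries with molecular identifiers. Alignment by the authors was to GRCm39 (TopHat2 2.0.10, 20 multiple hits allowed), and HTSeq 0.6.1 counted reads by gene and strand. The sources used here do not give how the listed genes were chosen or if duplicate molecules were collapsed. The deposited values are a signal, the gene counts that the authors divided by 1 size factor per library. In every library 100% of values were whole multiples of 1 read (tolerance 0.02), so the reads were recovered. A listed gene had reads in at least 7 libraries and at least 8 reads in 1. Replicate numbers only name the libraries. There were 0 columns without a sample.

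The main test was limma 3.58.1 with a trend on log2(normalized count + 1), with genotype as the one term, for genes with a mean of at least 10, adjusted by Benjamini-Hochberg over all genes tested. A log2 change is on this scale and understates the change of low genes. edgeR 4.0.16 (quasi-likelihood) and DESeq2 1.42.0 on the recovered reads, other pseudocounts (0.5 and 5), scalings and filters, array weights, and the omission of each library were alternatives. Scripts were tested on simulated data. Values in each library are given for genes with a mean of at least 100, the 4 highest and 4 lowest log2 changes, the 4 highest and 4 lowest mean correlations with the other genes, and the genes of the 10 tested pairs, 32 genes in all, and the other 13 by their range. The genes, lists and pairs were chosen with earlier results of these data known. Promoters were taken from RefSeq (GRCm38.p6). Libraries of 1214295 to 1973957 reads limit the precision of the lowest genes, and counting error is the only error that depth covers.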

Additional observations from a re-analysis of the deposited data

Results flagged for a closer look

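Within a genotype, 3 of 90 groups of libraries held a value far from the rest by Dixon's test (3.33%, where chance alone gives about 1 in 20, that is 4.5, and 5.33% were found over all genes tested). Ifitm1 was high in Rragc+/+ replicate 2, whose gap to the nearest library took up 0.793 of the range of that genotype. Ifi27l2a was high in RragcS74N/+ replicate 4, with 0.919 of the range. Ifit3 was low in Rragc+/+ replicate 1, with 0.716 of the range.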

How the results depend on the processing

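No gene passed an adjusted p of 0.05 in any of the settings run, and the log2 changes of the 8 genes with the highest or lowest change kept their sign in all of those in which they were tested. These 8 genes were picked by their change in these same libraries, which favours a kept sign, so this is a description and no test. The number of genes at an unadjusted p under 0.05 was 2. It was 1 with a minimum mean of 50 (Ifi204, with Xaf1 no longer tested), 4 after rescaling of all columns to 1 total, 4 with the 3′ GC trend removed (chosen after seeing the data), 6 with array weights, 5 by edgeR and 5 by DESeq2, and 1 to 4 with 1 library left out (1 without Rragc+/+ replicate 1 or 4 or RragcS74N/+ replicate 4, 4 without Rragc+/+ replicate 2 or 5). Xaf1 was among them wherever it was tested. The median log2 change was -0.055 with array weights and -0.065 to 0.18 with 1 library left out (lowest without RragcS74N/+ replicate 1, highest without RragcS74N/+ replicate 2). The median pairwise r was 0.285 with a minimum mean of 50, 0.274 with the first principal component removed, 0.183 as Spearman's rho, and 0.175 to 0.261 with 1 library left out. Of the tested pairs, 1 passed when genotypes were centred (Ifit1 and Ifit3, r = 0.89) and 0 to 2 with 1 library left out (2 without RragcS74N/+ replicate 1, Ifitm2 and Ifitm3 at 0.94 and Irf1 and Irf7 at -0.84).

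The median log2 change, near 0 throughout, was also below 0 with a minimum mean of 50 (-0.0059) and without Rragc+/+ replicate 5 (-0.015). Of the tested pairs, 7 turned sign in some setting. The r of Rsad2 and Cmpk2 was 0.24 rescaled, 0.17 with the GC trend removed, 0.0063 centred, 0.54 with the first component removed and -0.40 to 0.28 with 1 library left out. For Gbp2 and Igtp it was 0.021 rescaled, 0.069 centred, 0.73 with the first component removed and -0.20 to 0.12. For Isg15 and Irf7 it was -0.19 rescaled and -0.096 to 0.10, and for Ifit3 and Isg15 -0.20 to 0.60. For Oasl1 and Oasl2 it was -0.032 with the first component removed and -0.022 to 0.30, for Igtp and Irgm1 0.16 with the GC trend removed, and for Parp9 and Dtx3l -0.17 with the first component removed. The cause was not tested. No paired analysis was possible because no label carries a replicate number. With 5 and 4 libraries, genes of few reads such as Ube2l6 and Xaf1 are measured least well.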
